A study of Mus musculus with 9 samples.

Results

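Cultured oligodendrocyte precursor cells (OPC) were compared with cultured astrocytes, the other main glial cell type of the mouse cortex. The members were chosen by label alone: 3 libraries of group OPC and 3 of group Astrocytes, 6 of the 9 libraries of the series. The remaining 3 libraries, from dorsal root ganglion (DRG) neurons, entered the fit of each gene's spread but not the comparison. The OPC were cultures from mouse cortex at postnatal day 6 to 9, grown for 6 to 7 days. The astrocytes were cultures from cortex at postnatal day 1 to 3, grown for about 21 days until confluent. The DRG neurons were embryonic (E13.5), with about 2 weeks in culture. Animals of either sex were used, and the labels name no transgene, mutation or drug in any group. Donor age and time in culture changed together with cell type, so the 3 cannot be told apart in any value given here. The labels call the libraries of a group biological replicate experiments. They name neither litter nor date, so the p-values measure the spread between these cultures.

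OPC are dividing cells that are spread through the grey and white matter. They carry the PDGF receptor and the NG2 proteoglycan, receive synapses from neurons, and give rise to the oligodendrocytes that wrap axons in myelin. Astrocytes take up glutamate and potassium around synapses, store glycogen, supply lipids and lactate to neurons, are joined by gap junctions, and change their gene expression in injury and inflammation. Both types descend from the same neural progenitors and share several transcription factors. In culture dishes with serum, astrocytes are known to spread, form stress fibres and deposit matrix.

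Assigned read counts were 40906260 to 47042387 per OPC library and 33424457 to 48556154 per astrocyte library, and a further 22 to 22.9% of all reads were set aside as shared by several transcripts. Across genes, which are not independent replicates, the correlation of log2 CPM (CPM is the count scaled by library size and TMM factor) was 0.965 to 0.982 within OPC, 0.932 to 0.986 within astrocytes and 0.74 to 0.83 between them. Astrocytes replicate 1 stood apart from replicates 2 and 3 in markers of other cells and in genes of dividing cells, and OPC replicate 3 stood apart in transcript length. In OPC replicate 3 the median log2 ratio to the mean of the other OPC libraries was 0.22 over genes with transcripts of up to 1853 nucleotides and −0.23 over those of 4324 or more. Where leaving out both moved the log2 fold change of a gene described below by over 1.5-fold, the value without them follows as that of the reduced set, and adjusted p-values remain those of all libraries. With both left out, the calls given below for Egfr, Vegfb, Marcksl1, Dhcr7, Elovl2 and Ier2 ended. Reads shared by the transcripts of 1 gene were not counted, so the level of a gene with more than 1 RefSeq accession covers isoform-specific reads only, and its number of accessions is given where it is described. Values of 3 libraries are always in the order of replicates 1 to 3, means carry the SD over n = 3 libraries, and a log2 fold change is OPC minus astrocytes. Gene positions are those of RefSeq on build GRCm38.p6.

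Of 14850 genes tested with edgeR's quasi-likelihood test, 3904 were higher in OPC (26.3%) and 3786 were lower (25.5%) at a Benjamini-Hochberg adjusted p under 0.05. With at least a 2-fold difference there were 2696 higher (18.2%) and 3398 lower (22.9%). The 3 OPC libraries lay above all 3 astrocyte libraries in 31.8% of the genes and below them in 29.4%. These shares are the background for every gene list, and a list with shares near them is like the rest of the genes. The median log2 fold change over all genes tested was 0.09. The 49 lists below hold 1467 genes, of which 1358 passed the filter on low counts.

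**Figure D1:**
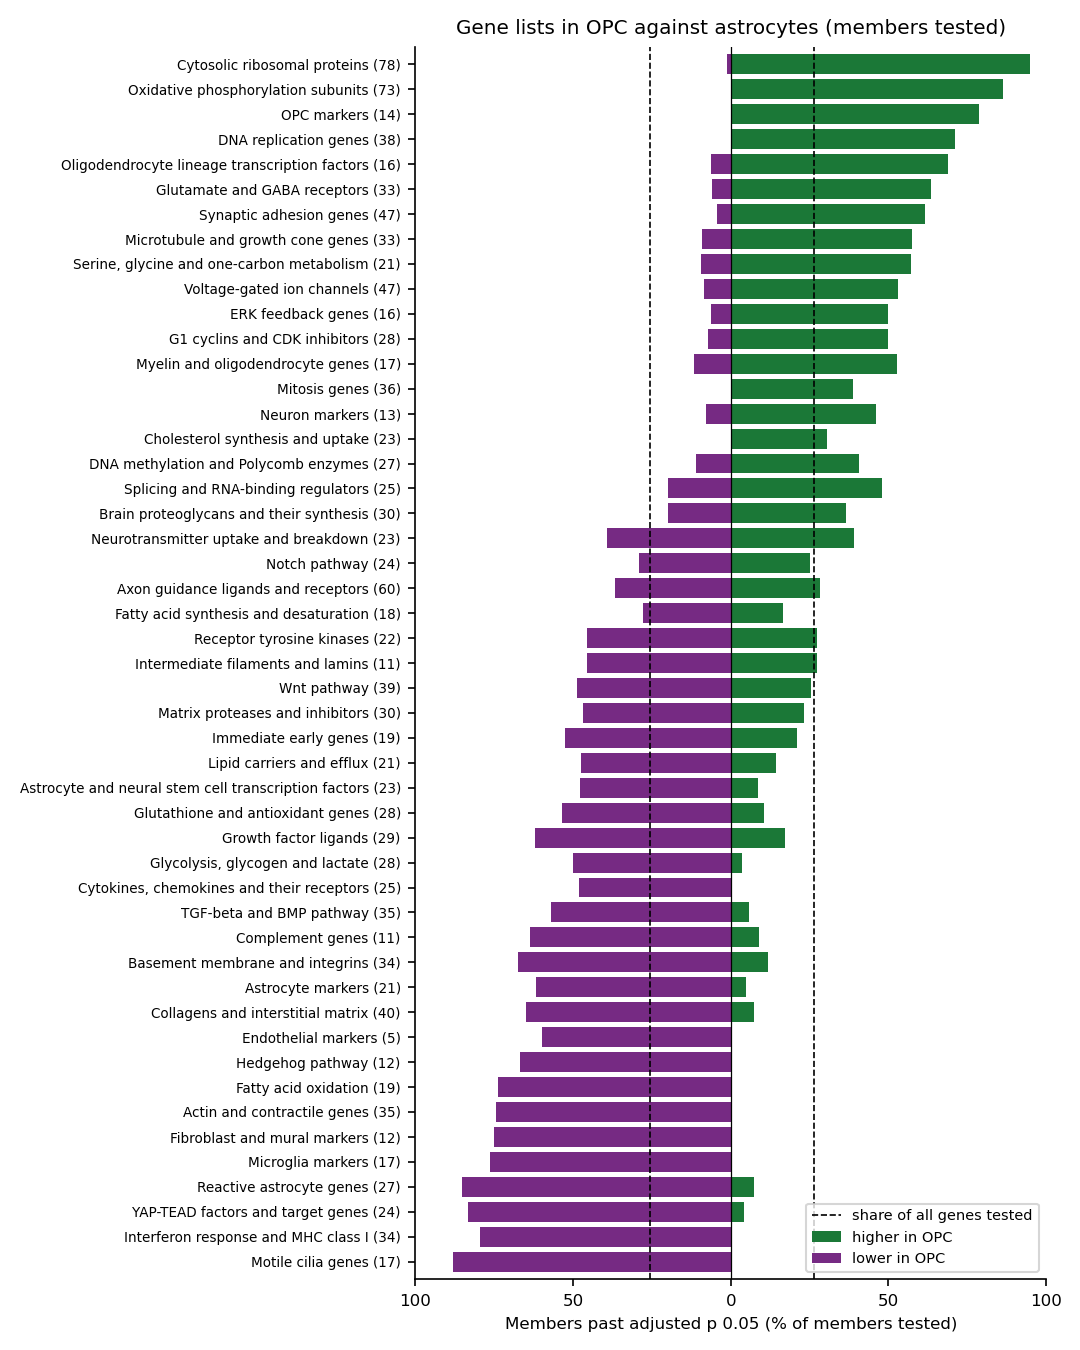
Share of the members tested in each of the 49 gene lists that were higher (green, right) or lower (purple, left) in OPC than in astrocytes, in percent. The number of members tested is in parentheses, and dashed lines mark the shares over all genes tested, 26.3% and 25.5%. Ribosomal protein, oxidative phosphorylation, replication and synaptic lists lie to the right, and cilia, interferon, YAP-TEAD, contractile and matrix lists to the left.

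Among genes of 20 CPM or more, the largest stable differences included a gene of the Notch ligand family, a synapse organiser and matrix genes, and 3 members of the marker lists below (Tagln, Osmr and Tm4sf1). Dll3, a member of the Notch ligand family in neural progenitors (chr7:28293555-28301785), was at 214, 184 and 266 CPM in OPC and at 0.282, 0.522 and 0.442 CPM in astrocytes (log2 9.06, SE 0.67, adjusted p = 1.99e-05). Cbln1, a secreted synapse organiser, was at 34.5, 27.7 and 33.5 CPM in OPC and 0.0376, 0.142 and 0.221 CPM in astrocytes (log2 7.93, reduced set 7.25, adjusted p = 9e-05). Pou3f1, a POU-domain transcription factor of myelinating glia, reached 37.6, 144 and 132 CPM in OPC against 0.376, 0.404 and 0.774 CPM in astrocytes (log2 7.67, adjusted p = 4.26e-05). For each of these 3 genes the lowest OPC library was far above the highest astrocyte library, although Pou3f1 was lower in OPC replicate 1 than in the other two. The remaining genes of this kind were Ina, Moxd1, Dscaml1, Plpp4, Dscam, Elfn2 and Slc16a14, with log2 fold changes of 7.06 to 7.77. In the other direction stood Fmod, the matrix proteoglycan fibromodulin, at 0.0223, 0.0407 and 0.0481 CPM in OPC and 515, 470.2 and 534 CPM in astrocytes (log2 −13.63, adjusted p = 4.6e-06). Akr1c14, a steroid dehydrogenase, had 0 counts in all OPC libraries and 215, 122 and 242 CPM in astrocytes, and was at least 8700-fold lower in OPC against a floor of 3 counts over the group. Fam107a, an actin-associated gene, had a log2 fold change of −10.62, and the other genes of this kind were Ltbp2, Tagln, Cnn1, Bmp6, Osmr and Tm4sf1.

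**Figure D2:**
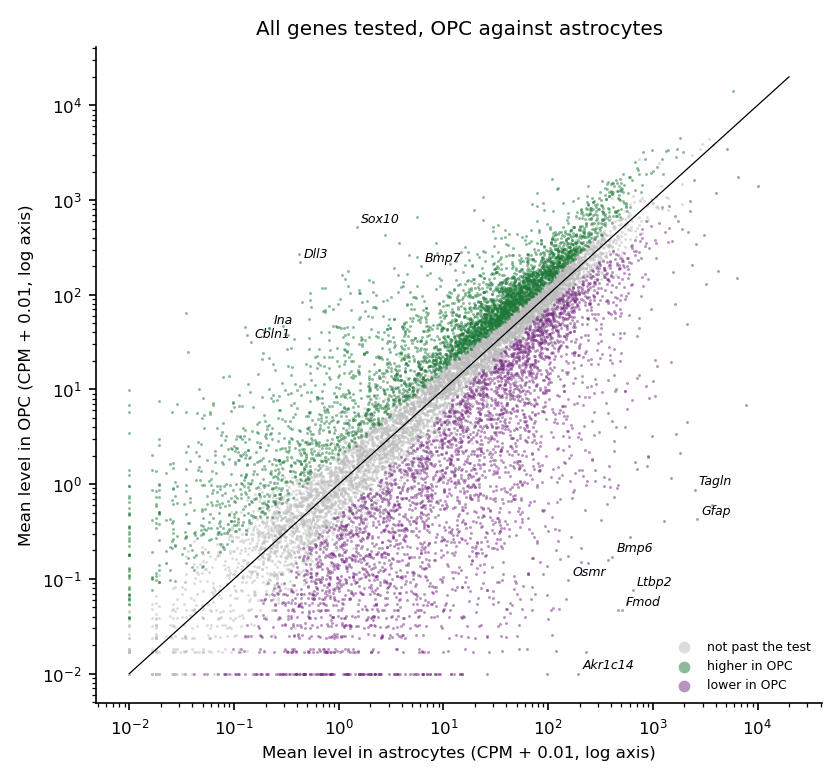
Mean level of each gene tested in astrocytes (x) and in OPC (y), in CPM + 0.01 on log axes, with the line of equal levels. Green genes were higher and purple genes lower in OPC, grey genes did not pass the test; Dll3, Cbln1 and Ina lie far above the line and Fmod, Ltbp2 and Bmp6 far below it.

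The labelled cell types carried their own markers. Of 14 OPC markers tested 11 were higher in OPC and 0 lower, with a median log2 fold change of 3.80 (3.49 with the member at 0 counts set to its bound). Cspg4, which encodes NG2, was at 1402, 882 and 979.9 CPM in OPC and 10.4, 36.2 and 24.2 CPM in astrocytes (log2 5.53, SE 0.58, adjusted p = 0.000101). Pdgfra, the receptor for PDGF-A (chr5:75151322-75198206, 2 accessions), was at 36.4, 26.9 and 18.7 CPM in OPC and 0.0376, 0.119 and 0.857 CPM in astrocytes (log2 6.38, adjusted p = 0.00079), and its log2 fold change was 8.45 without Astrocytes replicate 3. The groups did not overlap for either gene. Of 21 astrocyte markers 13 were lower and 1 was higher in OPC, with a median of −2.03. Gfap, the astrocyte intermediate filament (chr11:102887336-102897200, 2 accessions), was at 0.402, 0.203 and 0.65 CPM in OPC and 2658, 2393 and 2954 CPM in astrocytes (log2 −12.65, reduced set −13.3, SE 0.66, adjusted p = 4.6e-06), or −13.3 without OPC replicate 3. Aqp4, the water channel of astrocyte endfeet, was at 2.82, 0.244 and 0.385 CPM in OPC, with replicate 1 highest, and 1835, 1242 and 1352 CPM in astrocytes (log2 −10.33, or −12.2 without OPC replicate 1). Gja1, which encodes the gap junction protein connexin 43, was at 2.19, 0.977 and 1.18 CPM against 884, 550 and 693 CPM (log2 −8.93, adjusted p = 1.35e-05). Mlc1, a membrane protein of astrocyte endfeet (log2 −6.25), Aldh1l1, a folate enzyme used as a pan-astrocyte marker (log2 −4.44), and Fgfr3 (5 accessions, log2 −4.53) were also lower in OPC.

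Several genes often used as astrocyte markers did not pass the test or passed it in some fits only. Slc1a3, the glutamate transporter GLAST, was at 631, 923 and 828 CPM in OPC and 1573, 1360 and 1300 CPM in astrocytes (log2 −0.83, adjusted p = 0.12). Its groups did not overlap, and the difference did not pass the test in the fit of all 9 libraries but passed in that of the 6 libraries alone (log2 −0.94, adjusted p = 0.0143) and without DRG replicate 2 (adjusted p = 0.0152). Slc1a2, the glutamate transporter GLT-1 (3 accessions), had 2.35, 5.43 and 5.51 CPM in OPC and 3.99, 3.42 and 3.57 CPM in astrocytes of isoform-specific reads (adjusted p = 0.656). Sox9, a glial fate factor, was at 107, 115 and 122 CPM against 382, 161 and 217 CPM (log2 −1.15, adjusted p = 0.0522, and 0.0182 in the fit of the 6 libraries alone). Sox2, the progenitor factor both types share, was at 384, 389 and 372 CPM in OPC and 396, 295 and 312 CPM in astrocytes, which overlap (adjusted p = 0.658). Hepacam, an adhesion protein bound to Mlc1, had a mean of 258 ± 54.6 CPM in OPC against 278 ± 54.8 CPM in astrocytes (adjusted p = 0.831). Ptprz1, a receptor phosphatase that is spliced to the proteoglycan phosphacan, was at 3853, 2429 and 1189 CPM in OPC and 1139, 1166 and 1112 CPM in astrocytes (log2 1.13, adjusted p = 0.0585, and 0.0269 without OPC replicate 3). Egfr, the EGF receptor (2 accessions), was higher in OPC with 102, 120.2 and 82.4 CPM against 28.4, 57.7 and 46.9 CPM (log2 1.19, adjusted p = 0.0271). That call ended without any 1 of OPC replicate 1, 2 or 3 or Astrocytes replicate 1 or 3, with adjusted p of 0.0555 to 0.0858.

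Of 17 myelin and oligodendrocyte genes tested 9 were higher in OPC and 2 lower (Mal and Aspa, chosen after their values were seen, with means of 0.00678 and 0.00802 CPM in OPC and 1.5 and 0.691 CPM in astrocytes), with a median of 2.76. Mbp, the myelin basic protein gene (8 accessions), was at 40.6, 34.8 and 34.4 CPM in OPC and 9.4, 2.11 and 2.35 CPM in astrocytes (log2 2.98, reduced set 3.92, adjusted p = 0.00177). It was highest in Astrocytes replicate 1 among the astrocytes, without which the log2 fold change was 4.04. Plekhh1, an oligodendrocyte-enriched gene, had 30.4, 30.1 and 27.3 CPM against 5.21, 4.16 and 3.54 CPM (log2 2.76). Cnp, an early oligodendrocyte enzyme (2 accessions), had 18.4 ± 6.83 CPM in OPC and 16.7 ± 6.37 CPM in astrocytes and did not pass (adjusted p = 0.753).

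**Figure D3:**
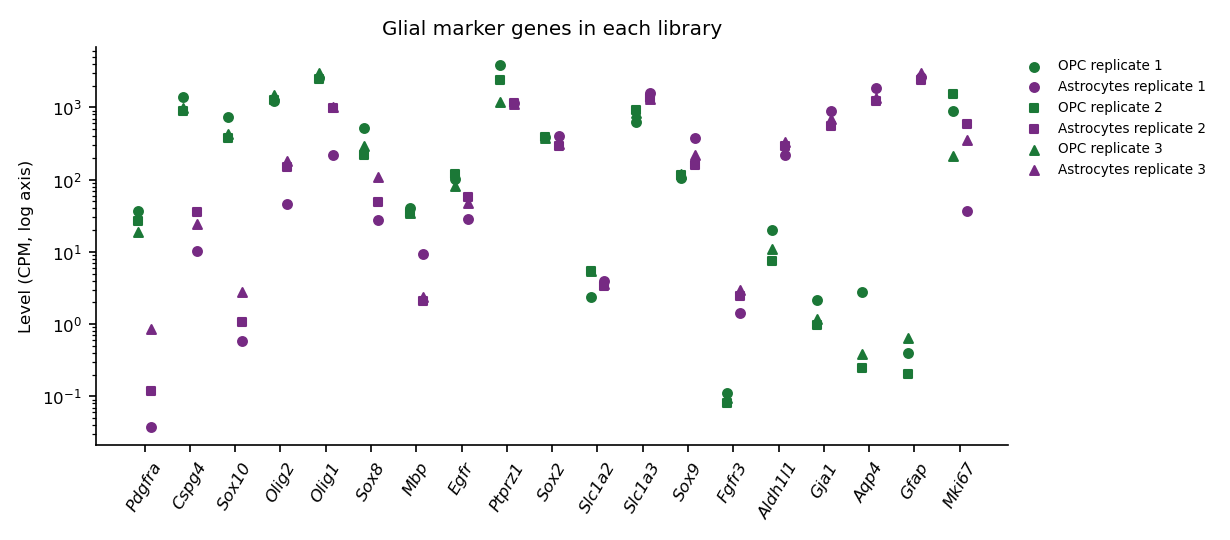
Level in CPM (log axis) of 19 marker genes in the 3 OPC libraries (green) and the 3 astrocyte libraries (purple), with 1 symbol per replicate. Cspg4, Sox10 and Olig2 lie apart in favour of OPC and Gja1, Aqp4 and Gfap in favour of astrocytes, while Sox2 and Slc1a2 overlap; Mki67 spreads widely within both groups.

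Microglia, fibroblast, mural and cilia markers and a few endothelial markers were higher in the astrocyte cultures. Neuron markers, described with the synaptic genes below, were higher in OPC. In these bulk libraries fewer cells of a type and less RNA per cell cannot be told apart. Of 17 microglia markers 13 were lower in OPC and 0 higher, and 8 without OPC replicate 2. Their summed level was 100.2, 193 and 491 CPM in OPC and 4966, 925 and 864 CPM in astrocytes, so that Astrocytes replicate 1 held most. None of the 17 was at 0 in either group, while an 18th marker, Ptprc, did not pass the filter, with 0 CPM in OPC and 0.174 CPM in astrocytes. Csf1r, the microglial growth factor receptor, was at 2.15, 8.3 and 17.7 CPM in OPC and 734, 136 and 118 CPM in astrocytes. Of 12 fibroblast and mural markers 9 were lower and 0 higher in OPC, with sums of 9.21, 13.9 and 7.51 CPM in OPC and 1467, 8151 and 9763 CPM in astrocytes. Tagln, an actin-binding protein of smooth muscle, made up much of this at 727, 3292 and 3508 CPM in astrocytes against 0.917, 0.936 and 0.746 CPM in OPC (log2 −11.49). Foxc1, a transcription factor of meningeal and mural cells, was at 13.9, 17.9 and 9.56 CPM against 0.157, 0.0611 and 0.0963 CPM (log2 −7.01). The sum does not stand for all members alike. Dcn, Rgs5 and Tbx18, chosen after their values were seen, had 37, 80 and 71 counts over the astrocyte libraries together, whereas Ogn had 30796. Of 17 motile cilia genes 15 were lower and 0 higher in OPC, with a median of −6.45 (−5.62 without Astrocytes replicate 1) and sums of 27.6, 35 and 30.7 CPM in OPC and 3166, 350.4 and 997 CPM in astrocytes. Foxj1, the regulator of motile cilia, chosen after its values were seen, was at 4.99, 3.42 and 3.51 CPM in OPC and 998, 168 and 459 CPM in astrocytes. Of 12 endothelial markers only 5 were tested, and 5 had 0 counts in all astrocyte libraries and 5 in all OPC libraries. Among those tested 3 were lower in OPC, such as the VEGF receptor Kdr at 1.41, 1.16 and 1.11 CPM in OPC and 15.7, 9.55 and 12.9 CPM in astrocytes. With no filter on low counts the median of the list was −0.347.

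**Figure D4:**
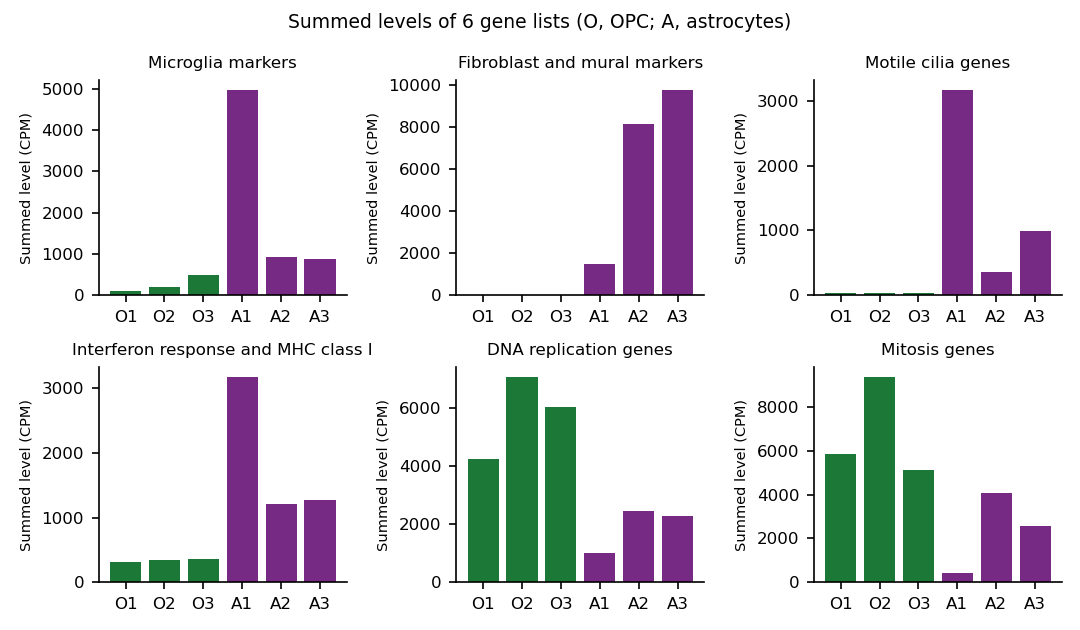
Summed level in CPM of 6 gene lists in OPC replicates 1 to 3 (O1 to O3, green) and Astrocytes replicates 1 to 3 (A1 to A3, purple). Microglia, cilia and interferon sums are highest in A1, fibroblast and mural sums in A2 and A3, and the replication sum is higher in each OPC library than in any astrocyte library, which holds for mitosis as well.

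Transcription factors of the oligodendrocyte lineage were mostly higher in OPC: 11 of 16 tested, with 1 lower (0 without OPC replicate 2 or 3) and a median of 2.47. Sox10, which drives the oligodendrocyte programme (chr15:79154913-79164490), was at 746, 377 and 425 CPM in OPC and 0.583, 1.07 and 2.76 CPM in astrocytes (log2 8.47, SE 0.81, adjusted p = 6.49e-05), or 9.29 without Astrocytes replicate 3, the highest astrocyte library. Its relative Sox8 was at 526, 223 and 291 CPM against 27.8, 48.4 and 108 CPM (log2 2.50, or 3.18 without Astrocytes replicate 3). The 3 relatives of the SoxE family thus lay in 3 places, with Sox9 not passing and leaning to astrocytes. Olig2, the bHLH factor that specifies the lineage, was at 1234, 1285 and 1463 CPM in OPC and 46.4, 148 and 179 CPM in astrocytes (log2 3.42, reduced set 2.79, adjusted p = 0.00204). Olig1 was at 2545, 2495 and 3043 CPM in OPC and 223, 977 and 1003 CPM in astrocytes (log2 1.88, reduced set 1.19, adjusted p = 0.0637, and 0.0293 in the fit of the 6 libraries alone). Both Olig genes were lowest in Astrocytes replicate 1, and neither was near 0 in any astrocyte library. Nkx2-2, a homeobox factor of the lineage (2 accessions), had 42.8, 38.9 and 49.8 CPM against 1.13, 2.68 and 2.24 CPM (log2 4.44), and Sox11, a SoxC factor of immature cells, 283, 247 and 159.7 CPM against 11.8, 43.8 and 43.3 CPM (log2 2.80).

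Factors tied to astrocytes and neural stem cells went the other way in 11 of 23 tested, with 2 higher in OPC and a median of −1.15. Id3, an inhibitor of bHLH factors that BMP signals induce, was at 22.9, 10.5 and 26.8 CPM in OPC and 403, 527 and 540 CPM in astrocytes (log2 −4.61, adjusted p = 8.11e-05). The forebrain factors Otx1 (log2 −3.11) and Pax6 (5 accessions, log2 −2.85) were lower in OPC as well. Against this trend, the progenitor factor Sox3 had 69.5, 70.3 and 77.8 CPM in OPC and 2.16, 10.8 and 7.27 CPM in astrocytes (log2 3.43, reduced set 2.80, adjusted p = 0.00214). Dbx2, a homeobox factor of the developing neural tube, had 33.6, 68.2 and 79.1 CPM against 6.85, 4.75 and 5.58 CPM (log2 3.40, adjusted p = 0.000132). The nuclear factor I genes Nfia (3 accessions), Nfib (5) and Nfix (3) did not pass (adjusted p = 0.175, 0.434 and 0.898).

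Growth factor genes were mostly higher in astrocytes, and 8 of 16 feedback genes of the ERK pathway were higher in OPC. Growth factors bind receptor tyrosine kinases, which act through the ERK kinases, and ERK activity induces genes of the Sprouty and PEA3 families that act on the pathway in turn. Of 29 ligands tested 18 were lower in OPC and 5 higher (median −2.25). Fgf1 was at 1.3, 1.32 and 1.44 CPM in OPC and 107, 70.2 and 66.6 CPM in astrocytes (log2 −5.90, SE 0.40, adjusted p = 1.3e-05). Cntf, a cytokine known from astrocytes, had 0.536, 0.448 and 0.193 CPM against 11.9, 6.82 and 13.2 CPM (log2 −4.75), and Nrg1, a ligand of ErbB receptors, 5.46, 9.26 and 5.94 CPM against 37, 41.4 and 41.9 CPM (log2 −2.54). Ptn, pleiotrophin, which binds the Ptprz1 product, was higher in OPC at 730, 586 and 550 CPM against 128, 160 and 165 CPM (log2 2.04, adjusted p = 0.000304), as was Vegfb (2 accessions, log2 1.66, adjusted p = 0.00618). Pdgfa, the ligand of Pdgfra, did not differ beyond its spread, with 28.1, 24 and 24.3 CPM in OPC and 31.3, 34.5 and 27 CPM in astrocytes (adjusted p = 0.235).

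Of 22 receptor tyrosine kinases 6 were higher (27.3%) and 10 lower (45.5%) in OPC, against 26.3% and 25.5% over all genes. Ntrk3, the neurotrophin-3 receptor (2 accessions), was at 93.9, 69.5 and 75.2 CPM in OPC and 7.47, 3.16 and 3.9 CPM in astrocytes (log2 4.04, adjusted p = 0.000107). The ErbB receptors split, with Erbb4 at 38.1, 24.7 and 10.5 CPM in OPC and 4.42, 3.87 and 3.51 CPM in astrocytes (log2 2.63), and Erbb2 at 1.88, 1.61 and 1.78 CPM against 50.8, 59.9 and 49.3 CPM (log2 −4.92, adjusted p = 2.01e-05). Fgfr2 (2 accessions) was at 0.805, 0.855 and 1.08 CPM against 40.1, 36.7 and 59.9 CPM (log2 −5.64), and Ror1, a receptor for Wnt5a, had a log2 fold change of −4.30. Among 16 ERK feedback genes 8 were higher and 1 was lower in OPC (median 1.16). Spry4, a Sprouty inhibitor, was at 162, 266 and 228 CPM in OPC and 18.7, 47.8 and 25.1 CPM in astrocytes (log2 2.84, adjusted p = 0.00185). The PEA3 factors Etv4 (log2 2.56, reduced set 1.82, adjusted p = 0.0014) and Etv1 (2 accessions, log2 2.24, adjusted p = 0.000925) were higher too. Dusp6, the ERK phosphatase, and Spred2 gave means of 190.1 ± 38.5 and 92.5 ± 9.26 CPM in OPC against 150 ± 35.5 and 96.5 ± 41 CPM and did not pass (adjusted p = 0.272 and 0.884).

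In the Notch pathway 3 genes of the ligand family were higher and the receptor Notch2 lower in OPC, although the list as a whole was near the background with 6 of 24 higher, 7 lower and a median of 0.25. Most Notch ligands on 1 cell activate receptors on its neighbours, which induce the Hes and Hey repressors. Whether Dll3 does so was not tested. Beside Dll3, the ligand Dll1 was at 121, 70.2 and 64.2 CPM in OPC and 2.31, 3.13 and 2.54 CPM in astrocytes (log2 5.0, adjusted p = 9.69e-06). Jag1 was at 137, 89.8 and 92.3 CPM against 15.1, 34.6 and 23.2 CPM (log2 2.13, adjusted p = 0.00153). The ligands Dll4 and Jag2 did not pass (adjusted p = 0.361 and 0.461). Of the receptors, Notch2 was at 28, 13.2 and 13.9 CPM in OPC and 306, 277 and 312 CPM in astrocytes (log2 −4.02, SE 0.33, adjusted p = 3.1e-05), whereas Notch1 had 295 ± 68.7 CPM in OPC and 248 ± 49.5 CPM in astrocytes and did not pass (adjusted p = 0.528). The target repressors Hey1 (log2 −2.74) and Hey2 (log2 −2.01) were lower in OPC.

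In the Wnt pathway 10 of 39 genes were higher in OPC (25.6%), near the 26.3% over all genes. A further 19 were lower (48.7% against 25.5%), and the median was −0.96. Wnt proteins bind Frizzled receptors, and the Sfrp and Dkk families include secreted inhibitors of the pathway. Fzd9 was at 42.6, 28.4 and 51.6 CPM in OPC and 0.15, 0.95 and 0.912 CPM in astrocytes (log2 5.94, reduced set 5.09), and Fzd7 at 9.88, 4.6 and 5.66 CPM against 72.8, 196 and 140.4 CPM (log2 −4.34). The inhibitor Sfrp2 was at 25.2, 34.8 and 31.2 CPM against 0.696, 1.24 and 1.71 CPM (log2 4.65, adjusted p = 9.88e-05), and Dkk3 at 2.59, 5.92 and 4.02 CPM against 265, 48.8 and 187 CPM (log2 −5.32, adjusted p = 0.00105). Each type thus had a Frizzled receptor and a member of the Sfrp or Dkk family of which the other had little. Whether Dkk3 inhibits Wnt signals in these cells was not tested. Rnf43, a ligase that removes Frizzled from the surface and is itself a Wnt target, was higher in OPC (log2 4.28), while Wnt5a (2 accessions) was lower (log2 −3.63). Axin2, the general feedback target of the pathway, had 31.9, 50.9 and 47.3 CPM in OPC and 40.5, 42.5 and 38 CPM in astrocytes, which overlap (adjusted p = 0.719).

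BMP and TGF-beta genes were lower in OPC in 20 of 35 cases and higher in 2 (median −1.93, or −1.28 without Astrocytes replicate 1). These ligands act through SMAD proteins, and BMP signals are known to favour astrocytes over oligodendrocytes. Bmp7 (chr2:172868012-172940321) stood out on the OPC side, at 202, 202 and 193 CPM against 7.49, 5.34 and 5.31 CPM in astrocytes (log2 5.04, SE 0.25, adjusted p = 4.23e-06). Bmp6 (chr13:38345716-38500314) was the reverse, at 0.0447, 0.224 and 0.217 CPM in OPC and 536, 281 and 407 CPM in astrocytes (log2 −11.27, SE 0.60, adjusted p = 4.8e-06). Each culture thus held 1 of these related ligands in all 3 of its libraries and little of the other. Smad6, an inhibitory SMAD that BMP signals induce, was at 0.0447, 0.0204 and 0.0241 CPM in OPC and 30.2, 36.1 and 47.9 CPM in astrocytes (log2 −10.19, adjusted p = 9.69e-06), the same direction as Id3. Ltbp2, a latent TGF-beta binding protein of matrix fibres, was at 0.0223, 0.0814 and 0.0963 CPM against 73.5, 1067 and 799 CPM (log2 −13.18, reduced set −14.2, or −12.6 without Astrocytes replicate 2) and was lowest of the astrocytes in replicate 1. The type II receptor gene Acvr2b was higher in OPC (log2 2.52), and the receptor genes Tgfbr1 and Bmpr2 did not pass (adjusted p = 0.98 and 0.283).

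All 3 Gli genes, the transcription factors at the end of the Hedgehog pathway, were lower in OPC. Gli1, which is also a target of the pathway, was at 0.0447, 0.0407 and 0.0241 CPM in OPC and 6.26, 14 and 9.37 CPM in astrocytes (log2 −7.96, SE 0.55, adjusted p = 1.55e-05). Gli2 (log2 −4.59) and Gli3 (log2 −4.63) were at 1.29 ± 0.0479 and 2.94 ± 0.832 CPM in OPC against 31.2 ± 11.5 and 73.1 ± 4.91 CPM in astrocytes. Of the 12 Hedgehog genes 8 were lower and 0 higher, or 1 without Astrocytes replicate 2 (median −1.36). The pathway inhibitor Hhip leaned the other way, with 11.1, 20.6 and 8.4 CPM in OPC and 0.32, 7.46 and 2.46 CPM in astrocytes, and did not pass (adjusted p = 0.0832).

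**Figure D5:**
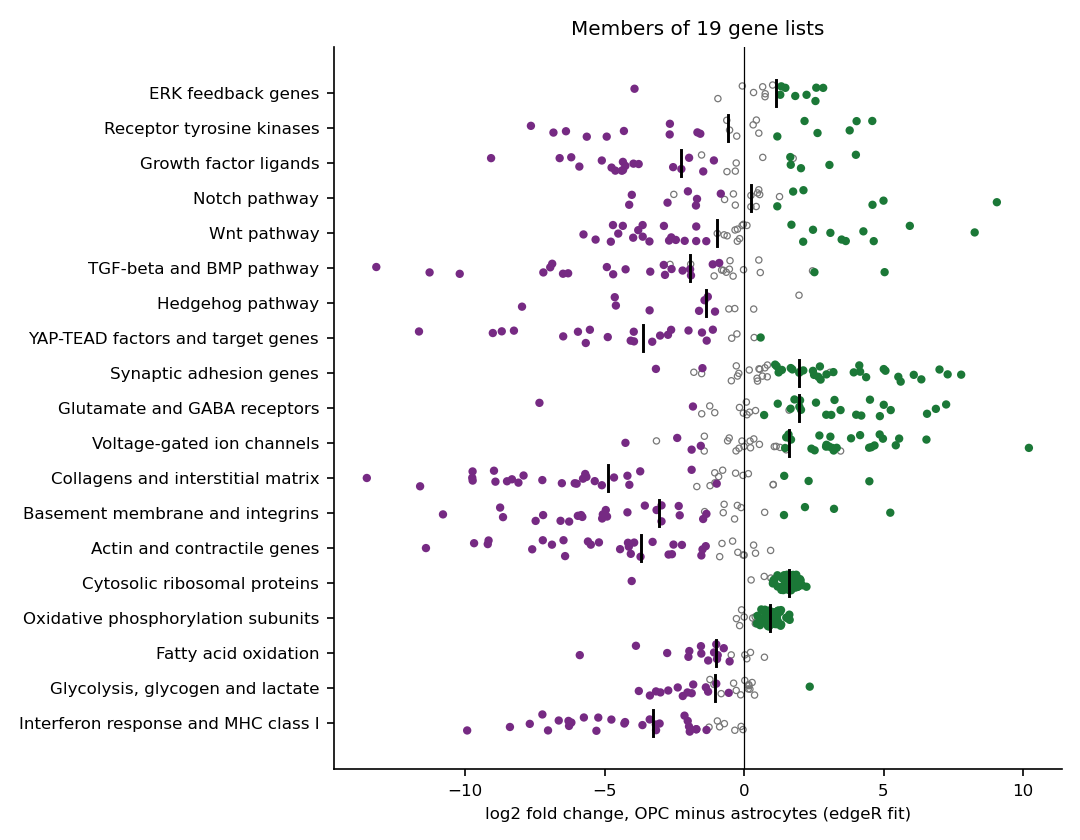
log2 fold change of each member tested in 19 gene lists, OPC minus astrocytes, from the edgeR fit. Filled points passed the test (green higher, purple lower in OPC), open points did not, and black bars are medians, such as −3.62 for YAP-TEAD genes and 1.63 for ribosomal proteins. Single members lie far from their list, for example Bmp7 and Dll3.

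YAP and TAZ are coactivators that enter the nucleus of spread, tense cells and act through the DNA-binding TEAD factors. Of 24 factors and targets tested 20 were lower in OPC and 1 was higher, with a median of −3.62. The higher member was Vgll4, a TEAD cofactor that opposes YAP, chosen after its values were seen, at 69.4 ± 14.1 CPM in OPC and 45.9 ± 5.34 CPM in astrocytes; it did not pass without any 1 of OPC replicates 1 and 3 and Astrocytes replicates 2 and 3. Ccn1, a secreted matrix protein and classical target (chr3:145646971-145649985), was at 4.54, 2.65 and 2.48 CPM in OPC and 611, 1258 and 1070 CPM in astrocytes (log2 −8.25, SE 0.69, adjusted p = 3.56e-05). Ajuba, a LIM-domain regulator of the pathway (chr14:54567469-54577661), was at 0.268, 0.163 and 0.289 CPM against 133, 106 and 133 CPM (log2 −9.0, SE 0.41, adjusted p = 3.46e-06). Wwtr1, which encodes TAZ (2 accessions), was at 0.157, 0.244 and 0.289 CPM against 10.9, 23.1 and 28.2 CPM (log2 −6.48, reduced set −7.13, adjusted p = 4.08e-05). No OPC library reached the lowest astrocyte library in any of these 3 genes. Igfbp3, a further target gene in the list, had 587, 849 and 1045 CPM in OPC and 184, 1783 and 1402 CPM in astrocytes and did not pass (adjusted p = 0.598).

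The core TEAD motif GGAATG, searched on both strands in the 250 bases before each start site, was present in 13 of 25 promoters of this list (52%), for the 20 of 28 members found in the RefSeq table. Among all 32851 promoters of the table it was present in 12.6%. The promoters of Ccn1 and Ajuba, examples chosen after the search, show its position in capitals, as CATTCC where it lies on the opposite strand. They are from RefSeq on build GRCm38.p6 and are printed 5′ to 3′ in the direction of the gene. That of Ccn1 is chr3:145649986-145650235, minus strand, and that of Ajuba is chr14:54577662-54577911, minus strand. A match is a description of the letters and not a measured binding site.
Ccn1: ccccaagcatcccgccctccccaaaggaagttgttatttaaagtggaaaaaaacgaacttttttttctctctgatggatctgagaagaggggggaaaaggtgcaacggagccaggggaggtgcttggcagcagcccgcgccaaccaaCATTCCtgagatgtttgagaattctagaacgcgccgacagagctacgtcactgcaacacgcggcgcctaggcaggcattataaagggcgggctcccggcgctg
Ajuba: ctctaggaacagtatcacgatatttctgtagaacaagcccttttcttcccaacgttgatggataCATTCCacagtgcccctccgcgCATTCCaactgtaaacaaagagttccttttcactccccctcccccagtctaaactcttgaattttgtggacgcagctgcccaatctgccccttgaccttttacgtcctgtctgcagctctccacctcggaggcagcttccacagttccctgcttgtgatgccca

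Actin and contractile genes followed the same direction, with 26 of 35 lower in OPC and 0 higher (median −3.71). Cnn1, the smooth muscle calponin, was at 0.0447, 0.0611 and 0.0481 CPM in OPC and 60.6, 220.1 and 162 CPM in astrocytes (log2 −11.40, adjusted p = 2.01e-05). Myl9, a myosin light chain, was at 0.291, 1.06 and 0.842 CPM against 153, 574 and 556 CPM (log2 −9.19, reduced set −9.84), and Lmod1, an actin nucleator of smooth muscle, at 0.0671, 0.0611 and 0.0481 CPM against 51.7, 47 and 53.1 CPM (log2 −9.68). Cnn1 and Myl9 were lower in Astrocytes replicate 1 than in replicates 2 and 3, and Lmod1 was not. Myh9, the general non-muscle myosin, and Tpm4 had means of 658 ± 104 and 316 ± 64.2 CPM in OPC against 873 ± 208 and 546 ± 169 CPM and did not pass (adjusted p = 0.144 and 0.0814). The summed level of fibroblast and mural markers, of which Tagln made up much, moved with the contractile, YAP-TEAD, TGF-beta and matrix lists. It went from 7.51 to 13.9 CPM in OPC to 1467 to 9763 CPM in astrocytes, and the part of these markers in these results was not tested. Without Astrocytes replicate 2 the lower members were 25 of 35 contractile and 20 of 24 YAP-TEAD genes, and without replicate 3 they were 25 of 35 and 21 of 25. These counts do not test the part of the fibroblast and mural markers, since their sum was still 1467 CPM or more in every astrocyte library kept.

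Of 40 collagens and interstitial matrix genes 26 were lower in OPC and 3 higher (median −4.88, or −4.42 with the member at 0 counts set to its bound). Col5a2, a fibril collagen chain, was at 2.41, 4.09 and 3.54 CPM in OPC and 464, 2553 and 1999 CPM in astrocytes (log2 −8.96, reduced set −9.60, adjusted p = 4.03e-05). Fn1, fibronectin (7 accessions), was at 0.0894, 0.122 and 0.0963 CPM against 6.09, 149.5 and 114 CPM (log2 −9.73, reduced set −10.4), and the crosslinking enzyme gene Loxl1 at 0.179, 0.0611 and 0.217 CPM against 20.6, 183 and 184 CPM (log2 −9.73, reduced set −10.7). All 3 were lowest among the astrocytes in replicate 1, by a wide margin for Fn1. Fbln1, fibulin 1, was higher in OPC at 26, 29.6 and 26.7 CPM against 2.58, 6.48 and 7.52 CPM (log2 2.31, adjusted p = 0.00241).

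Of 34 basement membrane and integrin genes 23 were lower in OPC and 4 higher (median −3.05), with 2 higher without OPC replicate 2 or Astrocytes replicate 3. Laminin chains are the core of basement membranes, and Lamb2 was at 2.46, 0.611 and 2 CPM in OPC and 710, 642 and 662 CPM in astrocytes (log2 −8.64, adjusted p = 2.83e-05). The laminin-binding nidogen Nid2 (log2 −6.27) was lower as well. The embryonic chain Lama1 was higher, at 15, 15.8 and 12.8 CPM in OPC against 0.433, 2.33 and 1.91 CPM in astrocytes (log2 3.23, SE 0.55, adjusted p = 0.00128). Agrn and Itgb1, which encode agrin and the common integrin beta chain, did not pass (adjusted p = 0.621 and 0.438).

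Of 30 genes of brain proteoglycans and their synthesis 11 were higher and 6 lower in OPC (median 0.68). Tnr, tenascin R of perineuronal nets, was at 403, 313 and 129.5 CPM in OPC and 49.97, 14.3 and 34.7 CPM in astrocytes (log2 3.10, reduced set 3.71, adjusted p = 0.00107), and was lowest of the OPC in replicate 3. Bcan, brevican (2 accessions), was at 832, 319 and 395 CPM against 116, 93.3 and 104 CPM (log2 2.30), and Cspg5, neuroglycan C (2 accessions), had a log2 fold change of 4.39. Among the lower members were 2 heparan sulfate carriers and a link protein. Gpc4, glypican 4, which astrocytes are known to secrete to form synapses, was at 6.86, 6.78 and 5.08 CPM in OPC and 470, 590.4 and 651 CPM in astrocytes (log2 −6.51, SE 0.28, adjusted p = 3.46e-06). Sdc4, syndecan 4, was at 1.27, 1.24 and 2.09 CPM against 358, 451 and 331 CPM (log2 −7.95, adjusted p = 8.53e-06). Hapln1, which links hyaluronan to the brain proteoglycans, was at 0.38, 0.488 and 0.144 CPM in OPC and 4.61, 4.61 and 7.02 CPM in astrocytes (log2 −3.98, adjusted p = 0.00146).

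Of 30 matrix proteases and inhibitors 7 were higher (23.3%) and 14 lower (46.7%) in OPC, against 26.3% and 25.5% over all genes (median −1.15). The membrane-bound metalloproteases separated by gene: Mmp15 was at 1280, 1855 and 1898 CPM in OPC and 96.5, 95.2 and 137 CPM in astrocytes (log2 3.94), while Mmp14 was at 3.55, 1.89 and 3.95 CPM against 141, 273 and 162 CPM (log2 −5.94, adjusted p = 3.5e-05). Mmp17 (log2 4.09) and Mmp24 (log2 4.44), also anchored in the membrane, were higher in OPC. The secreted Mmp11 (log2 −3.88) and the serine protease gene Htra1 (log2 −4.55, reduced set −5.45) were lower.

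Genes for contact and signalling at synapses were mostly higher in OPC. Of 47 synaptic adhesion genes, all tested, 29 were higher in OPC and 2 lower (median 1.98). Dscam, an immunoglobulin adhesion protein (chr16:96587452-97171113), was at 501, 405 and 386 CPM in OPC and 1.26, 2.49 and 4.51 CPM in astrocytes (log2 7.30, SE 0.52, adjusted p = 1.75e-05). Slitrk3, an organiser of inhibitory synapses, was at 138, 102 and 70.7 CPM against 0.564, 1.69 and 2.38 CPM (log2 6.08), and Cntn4, a contactin (3 accessions), had a log2 fold change of 5.62. Their levels were lowest in OPC replicate 3 and still above all astrocyte libraries. Cntnap1, a paranode protein, was lower in OPC at 5.31 ± 0.338 CPM against 14.9 ± 2.12 CPM (log2 −1.49). Nrxn3 and Nlgn1, a neurexin and a neuroligin (3 and 2 accessions), did not pass (adjusted p = 0.0953 and 0.174).

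Of 33 glutamate and GABA receptor genes 21 were higher in OPC and 2 lower, or 1 without any 1 OPC library (median 1.98, or 1.81 with members at 0 counts set to their bound). Grik3, a kainate receptor subunit (chr4:125490259-125714173), was at 456, 310.2 and 300.4 CPM in OPC and 4.33, 3.35 and 3.62 CPM in astrocytes (log2 6.56, SE 0.34, adjusted p = 4.6e-06). Gabbr2, a GABA-B receptor subunit, was at 50.3, 45.8 and 41.6 CPM against 0.959, 1.64 and 0.995 CPM (log2 5.26, SE 0.27), and Grid1, a delta receptor gene, at 124, 88.8 and 109.5 CPM against 3.82, 17.3 and 13.1 CPM (log2 3.24, reduced set 2.65). Subunits of the same receptor class did not all differ: Grik5 had 148 ± 19.4 CPM in OPC and 129.5 ± 28.7 CPM in astrocytes (adjusted p = 0.477). Among genes of voltage-gated channels 25 of 47 were higher and 4 were lower in OPC (median 1.59). Kcnd2, a subunit of A-type potassium channels, was at 162, 97.6 and 58.6 CPM against 2.44, 3.23 and 5.28 CPM (log2 4.86), and Kcnip3, which binds such channels (4 accessions), at 43.8, 38.3 and 54.7 CPM against 0.922, 1.16 and 0.802 CPM (log2 5.56). Kcnc2 was the reverse, at 0.85, 1.3 and 0.842 CPM in OPC and 13.47, 15.5 and 28.2 CPM in astrocytes (log2 −4.25, adjusted p = 6.03e-05).

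Neuron markers moved in the same direction as these lists, with 6 of 13 tested higher in OPC and 1 lower, and their part in them was not tested. Their summed level was 372, 348 and 371 CPM in OPC and 164, 199 and 181 CPM in astrocytes. Elavl3, a neuronal RNA-binding protein, was at 150.4, 117 and 99.8 CPM in OPC and 3.86, 5.67 and 7.1 CPM in astrocytes, and Tubb3, a tubulin of neurons, at 67.8, 87.8 and 127 CPM against 8.39, 17.9 and 13.7 CPM (log2 2.83, reduced set 2.15). The transmitter genes Slc17a7, Slc17a6 and Gad2 were at 0.265 ± 0.133, 0.276 ± 0.289 and 0.268 ± 0.156 CPM in OPC against 0.206 ± 0.174, 0.235 ± 0.316 and 0.263 ± 0.158 CPM in astrocytes and did not pass. The lower marker was Stmn2, a stathmin of growing neurons, chosen after its values were seen, at 0.291, 4.72 and 2.24 CPM in OPC and 104, 128 and 139 CPM in astrocytes. Of 23 genes of transmitter uptake and breakdown 9 were higher and 9 lower in OPC, with 5 higher without OPC replicate 3 or Astrocytes replicate 3 and 5 lower without OPC replicate 2. Slc29a4, a monoamine transporter, was at 128, 107 and 139 CPM in OPC and 0.508, 2 and 1.16 CPM in astrocytes (log2 6.68, reduced set 6.04). The mitochondrial glutamate carrier gene Slc25a18 was lower, at 15.2, 17.2 and 23.4 CPM against 375, 152 and 238 CPM (log2 −3.78).

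Axon guidance genes were near the background in their higher share, with 17 of 60 higher in OPC (28.3% against 26.3% over all genes). The 22 lower genes were 36.7% against 25.5%, and the median was −0.17. The netrin receptors Unc5a, at 33.1, 34.7 and 35.1 CPM in OPC and 0.357, 0.285 and 0.442 CPM in astrocytes (log2 6.56), and Dcc, at 119, 68 and 35.4 CPM against 0.809, 2.14 and 3.46 CPM (log2 5.12), were higher in OPC. Class 3 semaphorins, which are secreted, were among the lower genes: Sema3c was at 0.939, 2.26 and 1.03 CPM in OPC and 183, 190.3 and 259 CPM in astrocytes (log2 −7.21, SE 0.40), and Sema3f had a log2 fold change of −5.04. Robo2, a Slit receptor, was lower as well (log2 −3.72). Netrin itself, Ntn1, had 115 ± 37.4 CPM in OPC and 140.1 ± 43.1 CPM in astrocytes and did not pass (adjusted p = 0.454).

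Of 33 microtubule and growth cone genes 19 were higher in OPC and 3 lower (median 1.35). Stmn3, a stathmin that destabilises microtubules, was at 199.8, 260.1 and 377 CPM in OPC and 6.71, 8.36 and 10.9 CPM in astrocytes (log2 5.01, reduced set 4.42, adjusted p = 8.52e-06). Gap43, a growth cone protein, was at 344, 406 and 457 CPM against 9.61, 38.6 and 45.8 CPM (log2 3.68, reduced set 2.99), and Marcksl1, an actin regulator of the membrane, at 857, 770.1 and 1071 CPM against 69.5, 65.7 and 73.4 CPM (log2 3.69, adjusted p = 0.00944). Tuba4a was lower in OPC (log2 −4.75). Among intermediate filaments Ina, alpha-internexin, was at 48, 44.5 and 40.4 CPM in OPC and 0.0376, 0.309 and 0.276 CPM in astrocytes (log2 7.77, reduced set 7.13), and Vim, vimentin, at 1134, 2029 and 2111 CPM against 5093, 6980 and 7535 CPM (log2 −1.90, adjusted p = 0.000922). The nuclear lamins were opposed, with Lmnb1 at 598, 900.5 and 799.7 CPM in OPC and 28.2, 186 and 123 CPM in astrocytes (log2 2.77, reduced set 2.12) and Lmna (3 accessions) at 3.2, 3.26 and 4.72 CPM against 15.1, 28.5 and 20.6 CPM (log2 −2.52, adjusted p = 0.000179).

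Genes of DNA replication were higher in OPC in 27 of 38 cases and lower in 0 (median 1.66), with 22 higher when both Astrocytes replicate 1 and OPC replicate 3 were left out. Mcm5, a subunit of the replicative helicase, was at 244, 421 and 439 CPM in OPC and 18.8, 100.1 and 85.3 CPM in astrocytes (log2 2.43, adjusted p = 0.00477), reduced set 1.69. Mcm10 (log2 2.54, reduced set 1.88) and Chaf1b, a chromatin assembly factor (log2 2.40, reduced set 1.68), were alike. For all 3 the lowest value of all 6 libraries was in Astrocytes replicate 1. Of 28 G1 cyclins and inhibitors 14 were higher and 2 lower, or 1 in most fits with 1 library left out (median 0.93), with 6 to 9 higher without OPC replicate 2 or 3 or Astrocytes replicate 3. Mycn, a growth-promoting factor, was at 10.04, 15.8 and 15.7 CPM against 0.959, 1.4 and 1.91 CPM (log2 3.29, adjusted p = 8.5e-05), and E2f2 (log2 3.27, reduced set 2.68) and the G1 cyclin gene Ccne1 (log2 2.55, reduced set 1.96) were higher in OPC.

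Mitosis genes were less stable. Of 36 tested 14 were higher in OPC and 0 lower (median 1.55, or 2.25 without Astrocytes replicate 2), but without OPC replicate 2 or Astrocytes replicate 3 there were 2, without OPC replicate 3 there were 3, and in the fit of the 6 libraries alone there were 5. The summed level was 5866, 9327 and 5104 CPM in OPC and 407, 4079 and 2585 CPM in astrocytes. Mki67, the proliferation antigen, was at 891, 1545 and 214 CPM in OPC and 36.4, 586 and 353 CPM in astrocytes, which overlap (log2 1.44, adjusted p = 0.219). It moved to a log2 of 0.77 with OPC replicate 2 left out and to 2.18 with Astrocytes replicate 2 left out, and passed in neither. Mybl2, a factor of the complex that switches on these genes, was at 68.8, 136 and 113 CPM against 3.59, 28.8 and 20.1 CPM (log2 2.60, reduced set 1.91, adjusted p = 0.00704).

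Promoters of mitosis genes are known for the cell cycle homology region, TTTGAA, beside CCAAT boxes bound by NF-Y. In the 250 bases before the start, on either strand, TTTGAA was present in 12 of 33 promoters of the list (36.4%) and in 16% of all promoters, and CCAAT in 24 of 33 (72.7%) and 33.8%. The RefSeq table held 31 of the 36 genes. The promoters of Ube2c, a mitotic ubiquitin-conjugating enzyme, and Cdc20, an activator of the mitotic ubiquitin ligase, are printed as examples chosen after the search. TTTGAA or its complement TTCAAA is in capitals. The windows are chr2:164769679-164769928, plus strand, and chr4:118437344-118437593, minus strand, on GRCm38.p6. Ube2c was at 176, 304 and 312 CPM in OPC and 6.36, 81.2 and 51 CPM in astrocytes, and Cdc20 at 166, 318 and 325 CPM against 13.3, 111 and 69.2 CPM.
Ube2c: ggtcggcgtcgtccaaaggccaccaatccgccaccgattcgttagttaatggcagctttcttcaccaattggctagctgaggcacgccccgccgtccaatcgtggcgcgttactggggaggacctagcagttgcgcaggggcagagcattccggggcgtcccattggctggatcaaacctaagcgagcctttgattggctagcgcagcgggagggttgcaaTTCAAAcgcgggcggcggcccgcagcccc
Cdc20: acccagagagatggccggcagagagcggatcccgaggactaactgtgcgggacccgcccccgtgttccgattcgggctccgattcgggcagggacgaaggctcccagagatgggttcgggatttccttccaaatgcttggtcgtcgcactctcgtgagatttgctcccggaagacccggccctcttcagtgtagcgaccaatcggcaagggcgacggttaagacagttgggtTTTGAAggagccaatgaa

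Of 73 oxidative phosphorylation subunits 63 were higher in OPC and 0 lower, with a median log2 fold change of 0.95 against 0.09 over all genes. The count was 58 with the length trend of each library removed, 45 without OPC replicate 3, and 37 with a median of 0.58 without both OPC replicate 3 and Astrocytes replicate 1. Ndufb8, a complex I subunit, was at 221, 283 and 389 CPM in OPC and 87.6, 91.5 and 108 CPM in astrocytes (log2 1.64, SE 0.22, adjusted p = 0.000394), and the ATP synthase gene Atp5g2 at 489, 441 and 630.3 CPM against 162, 187 and 176 CPM (log2 1.57). Both were highest in OPC replicate 3. Genes of fatty acid oxidation were lower in OPC in 14 of 19 cases and higher in 0 (median −0.99). Cpt1a, which admits fatty acids to mitochondria, was at 10.04, 27 and 27.2 CPM in OPC and 289, 288 and 364 CPM in astrocytes (log2 −3.87, SE 0.41, adjusted p = 0.000103). Acaa2, the thiolase of the last step, was at 6.64, 9.3 and 12.8 CPM against 98.8, 45.4 and 49.4 CPM (log2 −2.75), and the dehydrogenase gene Acadm had a log2 fold change of −1.99.

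Of 28 glycolysis, glycogen and lactate genes 14 were lower in OPC and 1 was higher (median −1.04), with 9 lower without OPC replicate 2 and 0 higher without OPC replicate 3. Pygb, a glycogen phosphorylase, was at 78.7, 57.8 and 75.9 CPM in OPC and 1228, 658 and 1014 CPM in astrocytes (log2 −3.77, adjusted p = 4.49e-05), and the glucose transporter gene Slc2a1 at 29.4, 20.6 and 26.7 CPM against 344, 141 and 198 CPM (log2 −3.15). Pfkp, a phosphofructokinase (2 accessions), had a log2 fold change of −3.0. The core enzymes Pgk1 and Gapdh (2 accessions) did not pass (adjusted p = 0.621 and 0.508). Serine, glycine and folate genes went the other way, with 12 of 21 higher and 2 lower, or 1 without OPC replicate 1 or 2 or Astrocytes replicate 2 (median 1.24). Among the 17 members with 1 accession 8 were higher and 2 lower, with a median of 0.32. Shmt1, which moves a carbon from serine to folate, was at 42.5, 88.8 and 75 CPM in OPC and 5.62, 13 and 9.15 CPM in astrocytes (log2 2.89, adjusted p = 0.00042). The mitochondrial folate enzymes Mthfd2 (log2 2.62, reduced set 1.96) and Aldh1l2 (log2 2.65) were higher in OPC, whereas Amt of the glycine cleavage system was lower (log2 −1.85).

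Cholesterol synthesis, which oligodendrocytes need for myelin, gave 7 of 23 genes higher in OPC (30.4%), close to the background of 26.3%, and 0 lower. There were 4 higher without OPC replicate 2 or 3, and 2 lower without Astrocytes replicate 1. Acat2, the cytosolic thiolase of sterol synthesis, was at 410.3, 332 and 300 CPM in OPC and 30.9, 133 and 93.3 CPM in astrocytes (log2 2.02, adjusted p = 0.011), and Dhcr7 and Mvk, also of the pathway, had log2 fold changes of 1.81 and 1.76. Each of the 3 was lowest in Astrocytes replicate 1. Fatty acid synthesis genes were near the background with 3 of 18 higher and 5 lower, or 3 lower without OPC replicate 1. Elovl2, which lengthens polyunsaturated fatty acids, was at 41.4, 46.5 and 37.9 CPM against 3.78, 4.56 and 5.78 CPM (log2 3.15, adjusted p = 0.0109), and the desaturase gene Fads3 at 11.4, 11.2 and 11.3 CPM against 92.4, 61 and 79.4 CPM (log2 −2.78). Of 21 lipid carriers 10 were lower and 3 higher in OPC, or 1 higher without OPC replicate 1. Abca1, which loads lipid on apolipoproteins, was at 24.1, 12.2 and 16.3 CPM in OPC and 1349, 882 and 1033 CPM in astrocytes (log2 −5.96, adjusted p = 6.9e-06). Clu, the apolipoprotein clusterin, was at 3.89, 5.19 and 4.33 CPM against 3404, 1209 and 1708 CPM (log2 −8.88), and Lrp2, a receptor that takes up many carriers, had a log2 fold change of −6.64. Fabp5, a fatty acid binding protein (3 accessions), was higher in OPC (log2 2.44, reduced set 1.76).

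Glutathione and antioxidant genes were lower in OPC in 15 of 28 cases and higher in 3 (median −1.12). Prdx6, a peroxiredoxin, was at 249, 168 and 195 CPM in OPC and 3577, 1593 and 1895 CPM in astrocytes (log2 −3.53, adjusted p = 6.09e-05), and the glutathione transferase gene Gsta4 at 4.92, 4.82 and 5.97 CPM against 213, 100.2 and 137 CPM (log2 −4.84). Txn1, thioredoxin, was the reverse, at 549, 654 and 1148 CPM against 196, 226 and 202 CPM (log2 1.91, adjusted p = 0.000892). Slc7a11, the cystine importer, and Sod1 did not pass (adjusted p = 0.569 and 0.4).

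Ribosomal protein genes had the highest share of higher members among the 49 lists. Of 78 tested 74 were higher in OPC, each at least 2-fold, and 1 was lower, with a median log2 fold change of 1.63. Rps26 was at 648, 648 and 898 CPM in OPC and 129, 182 and 154 CPM in astrocytes (log2 2.24, adjusted p = 0.00012), and Rpl13 (log2 2.03) was alike. The summed level was 72790, 62020 and 85870 CPM in OPC and 21340, 25770 and 24300 CPM in astrocytes. These genes have short transcripts and many processed copies, and reads that matched several places, 7.49 to 11.8% of all reads in these 6 libraries, were set aside. With the length trend of each library removed 73 were higher, with a median of 1.43, and without OPC replicate 3 there were 68 of 79. Leaving out any 1 of OPC replicates 1 to 3 or Astrocytes replicate 2 gave 2 lower members. Rps24, the lower member (3 accessions), chosen after its values were seen, was at 0.433 ± 0.32 CPM in OPC and 7.08 ± 0.569 CPM in astrocytes of isoform-specific reads.

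Of 25 splicing and RNA-binding regulators 12 were higher in OPC and 5 lower (median 0.95). Nova1, a neuronal splicing factor, was at 394, 215 and 139.9 CPM in OPC and 22.7, 20.9 and 22.2 CPM in astrocytes (log2 3.51, adjusted p = 8.37e-05), and Ptbp2, the neural polypyrimidine tract protein, at 279.9, 289 and 176 CPM against 27.1, 40.3 and 39.9 CPM (log2 2.80). Msi1, Musashi 1 of neural stem cells, was lower (log2 −1.33), and Srrm4, which controls neural microexons, had a log2 fold change of −2.17. Of 27 DNA methylation and Polycomb genes 11 were higher and 3 lower (median 0.67). Cbx2, a Polycomb reader, was at 33.1, 37.1 and 36 CPM in OPC and 4.06, 7.53 and 6.99 CPM in astrocytes (log2 2.52), and Tet3, a methylcytosine oxidase, at 181, 175 and 174 CPM against 48.9, 62.8 and 50.6 CPM (log2 1.71). Ezh1, a Polycomb methyltransferase of cells at rest, was lower, at 20.3, 9.75 and 14.2 CPM against 67.5, 30.9 and 34.1 CPM (log2 −1.58, adjusted p = 0.00618).

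Interferons act through STAT and IRF factors that bind the interferon-stimulated response element, and 27 of 34 interferon response and MHC class I genes were lower and 0 higher (median −3.27). Ifitm3, a membrane protein that blocks virus entry, was at 0.693, 0.875 and 1.01 CPM in OPC and 285, 113 and 132 CPM in astrocytes (log2 −7.68, adjusted p = 2.18e-05). Ifitm2 (log2 −4.75) and Tapbp, which loads peptides on MHC class I (2 accessions, log2 −3.64), were alike. The summed level was 311, 353 and 364 CPM in OPC and 3167, 1205 and 1271 CPM in astrocytes. It was highest in Astrocytes replicate 1, where the microglia markers were also highest, and their part in the result was not tested. Without that library 26 of 34 members were lower, with a median of −2.53. That count does not test the part of the microglia markers. Astrocytes replicates 2 and 3 still held 925 and 864 CPM of them, against 100.2, 193 and 491 CPM in OPC. Stat2 and Irf1 (3 accessions) did not pass (adjusted p = 0.0766 and 0.962).

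The core of the response element, searched on either strand as TTTC followed by TTTC after 2 bases of any kind, was present in 13 of 33 promoters of this list (39.4%), for 28 of the 37 genes found, and in 2.98% of all promoters. The promoters of Ifit1 and Ifit3, which encode RNA-binding antiviral proteins, and of Isg15, a ubiquitin-like modifier, are printed with the matches in capitals as examples chosen after the search. In Isg15 the 3 matches overlap and lie on the opposite strand. The windows are chr19:34640639-34640888, plus strand, chr19:34583279-34583528, plus strand, and chr4:156200819-156201068, minus strand, on GRCm38.p6. Ifit1 was at 0, 0.0814 and 0.0481 CPM in OPC and 108, 11 and 17.4 CPM in astrocytes, Ifit3 at 0.402, 0.407 and 0.481 CPM against 129, 38 and 27 CPM, and Isg15 at 0.224, 0.183 and 0.193 CPM against 36.5, 9.14 and 14.9 CPM. All 3 were highest in Astrocytes replicate 1. The sterol response element and the NFI palindrome, searched likewise in the promoters of the cholesterol and astrocyte marker lists, had no match in 20 and 28 promoters, and were present in 0.192% and 0.0365% of all promoters.
Ifit1: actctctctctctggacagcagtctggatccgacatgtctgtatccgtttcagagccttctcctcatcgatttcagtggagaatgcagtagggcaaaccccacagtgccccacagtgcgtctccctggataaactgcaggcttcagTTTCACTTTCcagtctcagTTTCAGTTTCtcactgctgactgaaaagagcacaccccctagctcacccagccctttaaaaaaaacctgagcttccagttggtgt
Ifit3: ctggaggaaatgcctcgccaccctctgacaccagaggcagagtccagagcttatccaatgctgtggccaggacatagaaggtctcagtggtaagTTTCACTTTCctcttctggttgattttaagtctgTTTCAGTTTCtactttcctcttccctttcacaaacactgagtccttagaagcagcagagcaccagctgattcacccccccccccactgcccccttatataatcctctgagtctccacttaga
Isg15: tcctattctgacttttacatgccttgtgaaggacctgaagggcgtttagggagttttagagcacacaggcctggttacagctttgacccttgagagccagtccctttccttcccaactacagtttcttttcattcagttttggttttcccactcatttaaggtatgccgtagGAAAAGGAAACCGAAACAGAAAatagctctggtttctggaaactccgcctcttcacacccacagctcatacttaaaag

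Genes that astrocytes are known to raise in injury were lower in OPC in 23 of 27 cases and higher in 2 (1 without OPC replicate 1, 2 or 3 or Astrocytes replicate 3), with a median of −5.66 (−5.13 with members at 0 counts set to their bound, −4.86 without OPC replicate 1 and −6.43 without OPC replicate 3). Osmr, the oncostatin M receptor, was at 0.112, 0.102 and 0.0481 CPM in OPC and 139.6, 178 and 148 CPM in astrocytes (log2 −10.73, adjusted p = 3.46e-06), and Tm4sf1, a surface protein, at 0.112, 0.122 and 0.193 CPM against 277, 166 and 172 CPM (log2 −10.48). Steap4, a metal reductase, had 0 counts in OPC and 8.73, 4.7 and 5.25 CPM in astrocytes, at least 293-fold lower in OPC. Fkbp5, a chaperone that glucocorticoids induce, was higher in OPC at 133, 169.9 and 153 CPM against 17.7, 30.9 and 24.2 CPM (log2 2.65, adjusted p = 0.000617). Of 11 complement genes 7 were lower and 1 was higher, the lectin pathway protease gene Masp1, at 63.4, 64.2 and 68.8 CPM in OPC and 3.31, 15.1 and 12.5 CPM in astrocytes (log2 2.67, reduced set 2.05). The summed complement level was 74.3, 87.2 and 109 CPM in OPC and 1724, 295 and 794 CPM in astrocytes, highest in Astrocytes replicate 1, as were the microglia markers (4966 CPM there against 925 and 864 CPM), whose part in the result was not tested. Without that library the counts were 7 lower and 1 higher of 11, which does not test that part, as replicates 2 and 3 kept microglia markers. C3, the central complement component, chosen after its values were seen, was at 0.157, 0.163 and 0.481 CPM in OPC and 1125, 130.2 and 571 CPM in astrocytes.

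Of 25 cytokine and receptor genes 12 were lower in OPC and 0 higher in edgeR's test, and 1 was higher without Astrocytes replicate 1 or 2. Il6st, the receptor chain gp130 that OSM and CNTF share, was at 101, 102 and 84.4 CPM in OPC and 789, 405 and 487 CPM in astrocytes (log2 −2.54, adjusted p = 8.71e-05), the same direction as Osmr and Cntf. Ccl5, a chemokine, had 0.0894, 0.0611 and 0.12 CPM against 4.89, 4.39 and 5.89 CPM (log2 −5.78). The interferon receptor genes Ifnar1 and Ifngr2 did not pass (adjusted p = 0.0766 and 0.28). Immediate early genes, which respond to signals and to handling within minutes, gave 4 of 19 higher and 10 lower. Fosl2, an AP-1 subunit, was at 4, 7.71 and 9.34 CPM in OPC and 58.2, 106 and 70.6 CPM in astrocytes (log2 −3.48, reduced set −4.07), and Ier2 at 19.3, 55.4 and 65.7 CPM against 12.4, 17.1 and 12.3 CPM (log2 1.75, adjusted p = 0.00594). The growth-response genes Egr1 and Nr4a1, chosen after their values were seen, were also higher, at 126 ± 95.7 and 66.1 ± 9.3 CPM in OPC against 27.1 ± 11.3 and 6.8 ± 7.27 CPM. Fos and Jun themselves did not pass (adjusted p = 0.149 and 0.184).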

How the data were processed

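RNA from cultured cells was extracted with TRIzol and sequenced from stranded mRNA libraries, per the labels' protocols. The authors deposited 1 table of counts per library, with 1 row per transcript accession; the build (mm10) and the tools TopHat2 and HTSeq are named without versions, per the submitters' processing notes. The counting mode and strand setting are not given in the sources used here. Counts were summed per gene over RefSeq names (32417 of 33787 accessions, 187 more by GENCODE names, 1183 kept under their accession), and summary rows were dropped (ambiguous reads 22 to 22.9%, reads without a feature 6.73 to 11.4%, non-unique reads 7.49 to 11.8% of the reads of the 6 libraries). With 33424457 to 48556154 assigned reads per library, counting error is small for all but low genes.

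Genes passing filterByExpr (minimum count 10) were scaled by TMM and fitted over all 9 libraries, so that DRG shares the estimate of spread, and OPC was compared with astrocytes by edgeR 4.0.16 (glmQLFit and glmQLFTest, R 4.3.3, residual df 6), with Benjamini-Hochberg adjustment over all 14850 genes and a threshold of 0.05. The script was tested on simulated counts. CPM values carry TMM scaling. Where a group had 0 counts, the fold is a bound against a floor of 3 counts over the group. Alternatives were DESeq2 1.42.0, other scalings, filters of 1 count and of 10 CPM, the 6 libraries alone, a replicate block, removal of a length trend (R's loess), genes with 1 accession, and each library left out.

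Text names 20 fixed marker genes, up to 3 members per list and direction, of at least 5 CPM, that kept their call and moved by less than 1.5-fold when any library was left out, and the 10 such genes per direction with the largest change at 20 CPM or more; members that missed the threshold are given as values, and other genes are marked as chosen after their values were seen. The members and lists were chosen with earlier results of these data known. Each list is described by its counts and median beside those of all genes, with no test of the list. Promoter windows came from RefSeq (GRCm38.p6). Some genes that the rule names are not reported here.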

Additional observations from a re-analysis of the deposited data

How the results depend on the processing

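With only genes above 10 CPM tested, 2318 genes were higher in OPC, and 1390 were higher and 2082 lower by at least 2-fold, since fewer genes were tested. Leaving out each library in turn gave 3086 to 4075 higher and 3231 to 3946 lower genes, and 2100 to 2766 higher and 3034 to 3529 lower by at least 2-fold. The remaining alternatives kept both counts within 1.5 times. The fit of the 6 libraries alone gave 2986 higher and 3668 lower genes, and 2197 higher and 3361 lower by at least 2-fold. Leaving out both Astrocytes replicate 1 and OPC replicate 3 gave 2876 higher and 3647 lower genes. Scaling by library size alone gave 3424 higher and 4041 lower genes, and moved the median of all genes by −0.11 (log2). Leaving out OPC replicate 3 moved that median by −0.13. Named genes other than the 20 fixed markers were chosen for keeping their call with any 1 library left out. Their agreement in those fits was therefore set by the choice and does not measure how stable calls are. Across named genes and alternatives 3746 values kept direction and call, 13 lost the call, 20 gained it and 2 reversed, both of genes that did not pass the test. Those were Sox2, at −0.0088 with only genes above 10 CPM (adjusted p = 0.985), and Slc1a2, at −0.0578 without OPC replicate 3 (adjusted p = 0.944) and up to 0.59 without OPC replicate 1, and the cause was not tested. Of the 49 list medians 46 kept their sign throughout, and those of the Notch, transmitter uptake and intermediate filament lists did not. Over genes with 1 accession the medians given above moved to 2.89 (OPC markers), 1.19 (glutamate and GABA receptors), 0.32 (serine, glycine and folate), −4.16 (collagens), −7.07 (cilia), −7.19 (reactive genes) and −3 (YAP-TEAD genes). With only genes above 10 CPM they moved to 4.34 (myelin), −8.34 (reactive), −7.44 (cilia), −2.63 (TGF-beta), −5.89 (collagens), −4.04 (basement membrane) and −4.47 (interferon), and with no filter to 1 (myelin) and −4.92 (reactive). The 6 libraries alone gave −7.12 for reactive genes, and leaving out both Astrocytes replicate 1 and OPC replicate 3 gave −5.7 for cilia and −3.75 for basement membrane genes.

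With the replicate number as a block 3830 genes were higher and 3591 lower. The labels do not say whether samples with the same number were prepared together. The correlations of same-numbered deviations from the group means were 0.01, 0.13 and −0.04. For OPC replicates 1 and 2, but not 3, the best partner was the one with the same number. Such correlations over 3 libraries per group cannot decide whether the samples are paired. Depth limits what can be said of genes near 0 counts, whose folds are bounds. Of the samples, 3 per group limit every test.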
